A study of Mus musculus with 2 samples.

Results

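The 44 genes described here are mouse imprinted genes, taken by name from the GENCODE M21 annotation, where all 44 were found among 55413 genes of all types. The choice rests on their known imprinting, and no measured value enters the rule. By textbook knowledge 23 are expressed from the paternal copy and 16 from the maternal copy, in some cases only in certain tissues. The other 5 were put in neither class, since the copy used differs with isoform or tissue (Grb10, Ddc, Gnas, H13 and Inpp5f).

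Open chromatin was measured by DNase-seq, which maps DNA that the enzyme DNase I can cut in nuclei. Both libraries came from right cerebral cortex of female B6CASTF1/J mice, a first-generation hybrid of C57BL/6J with CAST/EiJ, aged 18 to 20 months. They form 1 group of 2 biological replicates with no treatment and no control. The labels give both biosamples the same donor identifier, so the spread between replicates may be technical. With 1 group no test was possible, and the values below are descriptions. No file separates the parental copies, so each value is the sum over both.

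An imprinted gene is expressed from the copy of only 1 parent. In most imprinted clusters the choice is set by a stretch of DNA that is methylated in the egg or in the sperm and stays methylated on that copy in the embryo. Many such germline-methylated regions carry the start site of a paternally expressed gene or of a long non-coding RNA. The zinc finger protein ZFP57 binds the methylated form of a short CpG-holding motif and helps to keep the mark. CTCF binds the unmethylated copy upstream of H19, where it insulates Igf2 from enhancers. In brain, imprinted genes are known for roles in growth, feeding and maternal behaviour, and Ube3a is imprinted mainly in neurons.

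The sequences of 8 accessible regions at or near imprinted genes are shown first, as examples picked after their values were seen. They were read on the plus strand of the mm10 genome (GRCm38.p6). Capitals mark bases inside footprints of both replicates, where a footprint is a short stretch protected from cutting that the authors called within open chromatin. Annotated untranslated regions were trimmed off, and regions over 300 bp were shortened to their central 300 bp. The first pair lies in the first part of the Peg3 gene, downstream of its start, and holds the YY1 motif for which that region is known.
Peg3 intron, nearer (chr7:6729441-6729720): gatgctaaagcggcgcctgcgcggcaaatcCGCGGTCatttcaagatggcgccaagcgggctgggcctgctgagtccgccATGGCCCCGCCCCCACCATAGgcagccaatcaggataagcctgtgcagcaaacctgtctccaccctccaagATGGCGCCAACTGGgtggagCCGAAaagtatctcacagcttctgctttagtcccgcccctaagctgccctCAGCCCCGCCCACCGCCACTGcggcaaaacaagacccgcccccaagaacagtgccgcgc
Peg3 intron, middle (chr7:6728471-6728770): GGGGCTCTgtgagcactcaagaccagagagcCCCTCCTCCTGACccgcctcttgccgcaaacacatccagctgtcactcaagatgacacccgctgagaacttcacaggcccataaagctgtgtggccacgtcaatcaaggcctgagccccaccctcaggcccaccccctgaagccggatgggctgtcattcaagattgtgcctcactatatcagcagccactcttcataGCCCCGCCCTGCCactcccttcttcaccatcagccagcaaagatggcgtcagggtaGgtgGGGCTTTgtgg
The motif AANATGGCG of YY1, a zinc finger protein, occurred 2 times in the nearer Peg3 region and 1 time in the middle region. At positions 149 to 157 of the nearer one, 6 of the 9 bases lay in footprints of both replicates. The ZFP57 motif TGCCGC occurred 3 times in the nearer region and 1 time in the middle one, with no occurrence wholly inside footprints of both replicates. The GGGCGG motif of SP proteins occurred 4 times in the nearer region, 2 of them wholly inside footprints of both. All motifs were searched on both strands, and positions count from 1 at the left end of the printed run.

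The next 2 regions show occurrences of the ZFP57 motif that were protected. The first lies at the Snrpn start and the next inside the non-coding Peg13 gene.
Snrpn start (chr7:60005112-60005240): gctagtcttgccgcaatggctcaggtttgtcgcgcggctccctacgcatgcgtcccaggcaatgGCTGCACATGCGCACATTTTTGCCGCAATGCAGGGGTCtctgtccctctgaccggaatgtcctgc
Peg13 gene (chr15:72809921-72810140): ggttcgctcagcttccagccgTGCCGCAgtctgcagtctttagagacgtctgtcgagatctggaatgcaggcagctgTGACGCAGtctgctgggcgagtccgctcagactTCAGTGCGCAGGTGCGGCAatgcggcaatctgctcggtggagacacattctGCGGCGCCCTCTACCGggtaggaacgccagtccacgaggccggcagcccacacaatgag
Of 2 occurrences of TGCCGC at the Snrpn start, 1 was wholly inside footprints of both replicates. In Peg13 it was 2 of 3. Footprints do not name the protein that made them.

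The following 4 regions are the start of the antisense RNA Kcnq1ot1, an intron of Peg10, an exon of Meg3 and the nearer accessible region upstream of H19.
Kcnq1ot1 start (chr7:143296541-143296820): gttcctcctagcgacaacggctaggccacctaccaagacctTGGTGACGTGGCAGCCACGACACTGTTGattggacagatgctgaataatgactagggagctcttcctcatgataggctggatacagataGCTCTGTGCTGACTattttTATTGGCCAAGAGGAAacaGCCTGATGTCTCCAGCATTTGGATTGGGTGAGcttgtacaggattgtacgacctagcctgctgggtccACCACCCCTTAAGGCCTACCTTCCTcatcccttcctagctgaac
Peg10 intron (chr6:4749181-4749460): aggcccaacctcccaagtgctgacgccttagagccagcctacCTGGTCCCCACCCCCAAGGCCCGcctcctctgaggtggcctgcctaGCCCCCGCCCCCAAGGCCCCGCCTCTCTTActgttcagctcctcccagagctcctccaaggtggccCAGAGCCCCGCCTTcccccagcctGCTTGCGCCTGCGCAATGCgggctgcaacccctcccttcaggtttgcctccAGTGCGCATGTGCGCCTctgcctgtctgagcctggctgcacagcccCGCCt
Meg3 gene (chr12:109542921-109543180): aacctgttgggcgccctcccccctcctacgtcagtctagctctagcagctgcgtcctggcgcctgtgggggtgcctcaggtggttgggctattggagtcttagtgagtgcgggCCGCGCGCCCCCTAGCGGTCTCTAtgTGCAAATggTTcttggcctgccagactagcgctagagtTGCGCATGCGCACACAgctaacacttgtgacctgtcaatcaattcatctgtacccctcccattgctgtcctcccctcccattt
H19 upstream, nearer (chr7:142580703-142580836): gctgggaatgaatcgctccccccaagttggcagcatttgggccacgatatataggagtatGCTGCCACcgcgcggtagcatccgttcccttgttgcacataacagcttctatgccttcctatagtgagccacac
The Kcnq1ot1 start held none of the 8 motifs searched, although footprints of both replicates covered 115 of its 280 bases. In the Peg10 intron they covered 107 of 280 bases, including the 1 occurrence of GGGCGG. In Meg3 the AGGGGGC motif of CTCF occurred 1 time, wholly protected in both replicates. The same Meg3 region held 2 overlapping occurrences of GCATGCGC, the motif of the transcription factor NRF1, and both were protected. The H19 region held 1 occurrence of GGNGGCAG, the core of the CTCF sites of that region, at positions 62 to 69, with 7 of its 8 bases in footprints of both replicates.

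Each library has a list of peaks, each with a signal value that the authors deposited, on a scale not given in the sources used here. Replicate 1 had 86601 peaks and replicate 2 had 88482 in the shorter of the 2 lists of each library. The median peak value was 0.721 in replicate 1 and 0.9987 in replicate 2. The values were whole multiples of 1 step. If a step is 1 read per M reads (M for mega), the depth was 201 M reads in replicate 1 and 112 M in replicate 2, an inferred figure. Over genes whose start sites were open in both, the median log2 ratio of replicate 1 to replicate 2 was -0.49, so level differences between replicates are given relative to that shift or as ranks. As a check of the tissue, 6 of 6 markers of excitatory cortical neurons had a promoter peak in at least 1 replicate and 3 in both. Markers of astrocytes and of oligodendrocytes had 2 of 4 each in both. Of 3 inhibitory neuron and 3 microglia markers, 1 each had a peak in 1 replicate. The 3 choroid plexus, 2 endothelium and 2 hepatocyte markers had none. In bulk tissue, fewer cells with an open site and less openness per cell cannot be told apart.

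Most of the imprinted genes had an accessible start site. A peak lay within 500 bp of a start site in both replicates for 29 of 44 (65.9%), against 28.6% of all genes and 57.9% of protein-coding genes. A gene with more annotated starts has more windows in which a peak can count. The median number of starts was 5 for the members, 1 for all genes and 3 for protein-coding genes, and the shares were not adjusted for it. The 36 protein-coding members had 26 (72.2%), and the 8 non-coding members had 3 (37.5%). The share over the list therefore sits nearer to that of protein-coding genes than to that of all genes. A start window rich in CpG, with an observed to expected CpG ratio of at least 0.6 within 500 bp, was also compared. Of all genes with such a window 86.0% had a peak in both replicates, and of the members it was 23 of 28 (82.1%). Of the 16 members with CpG-poor windows 6 had a peak in both (37.5%), against 9.25% of all CpG-poor genes. These 2 sets are unlike, with a median CpG ratio of 0.510 for the members against 0.210, and a median of 4 starts against 1. With peaks that also lie at the start of another gene left out, 22 members had a promoter peak in both, against 19.7% of all genes treated in that way.

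**Figure D1:**
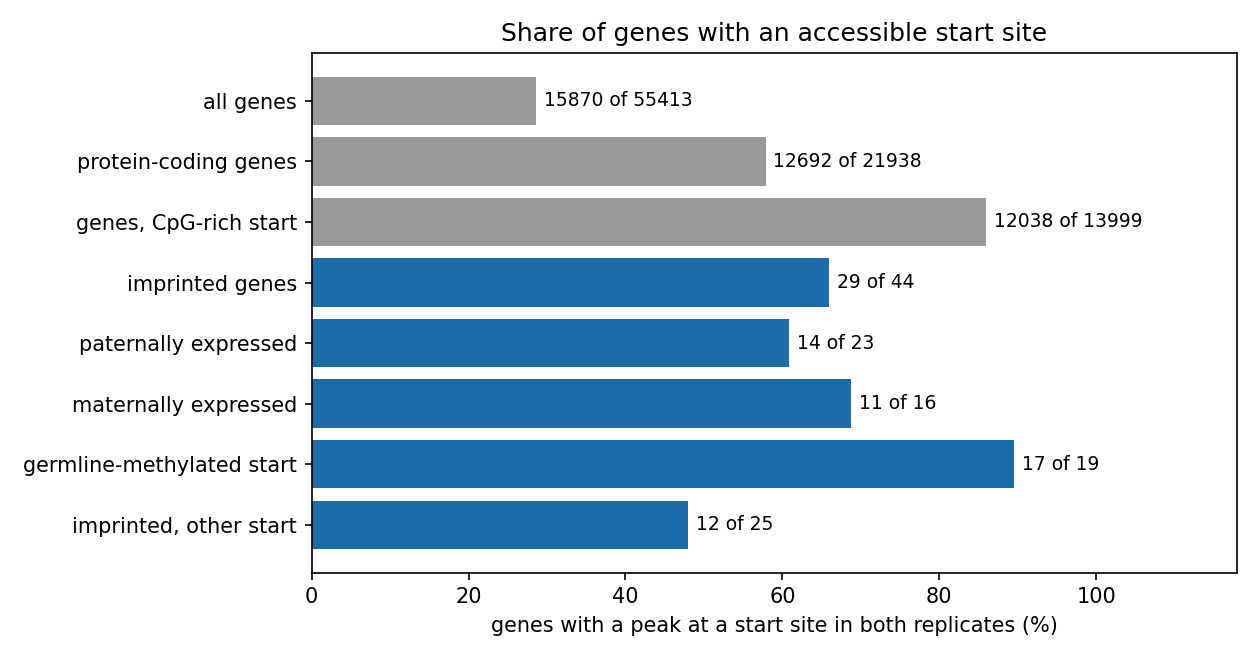
Percent of genes with a peak within 500 bp of an annotated start site in both replicates (x axis), for 3 sets of all genes (grey) and 5 sets of imprinted genes (blue), with counts beside the bars. Genes with a germline-methylated start (17 of 19) lie near the CpG-rich genes, and the other imprinted genes (12 of 25) lie below the protein-coding genes.

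Within the list, open starts were more frequent among genes with a germline-methylated start. This class takes only starts whose mark lies on the maternal copy, and no maternally expressed gene is in it. Of the 19 genes with a start at such a region 17 had a promoter peak in both replicates (89.5%), all but Airn and Nespas. Of the other 25 it was 12 (48.0%). Among paternally expressed genes the counts were 14 of 16 with a germline-methylated start and 0 of 7 without (Ndn, Magel2, Mkrn3, Igf2, Dlk1, Rtl1 and Zdbf2). The 0 of 7 holds for the GENCODE starts only. At its RefSeq start, 1708 bp away, Ndn had a peak of 1.02 and 1.78. Zdbf2 has a RefSeq start 72907 bp from its nearest GENCODE start, with no peak in either replicate. Whether a germline-methylated region lies at that far start was not examined, so the class of Zdbf2 rests on its GENCODE starts. Dlk1 had a promoter peak in replicate 1 only, and Magel2 and Mkrn3 in replicate 2 only. The 89.5% lies close to the 86.0% of CpG-rich genes in general, and 15 of these 19 genes have a CpG-rich start window. Of the other 25 genes 13 have one, so the groups also differ in CpG content. Of the 7 paternally expressed genes without such a region, 4 are CpG-rich as well. The median number of annotated starts was 1 for these 7 and 3.5 for the 16 with such a region. Over the 19 and the other 25 genes it was 6 and 5. No test was made of any of these differences.

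Where open, the genes with a germline-methylated start had a lower median value than the other imprinted genes. The 17 open genes with such a start are the 14 open paternally expressed ones with Grb10, Gnas and Inpp5f. The 12 others are the 11 open maternally expressed ones with H13. This contrast is therefore nearly the same as that of the parental classes given below. A gene's value is that of the strongest peak at any of its starts, which need not be the methylated one. The median promoter value of these 17 genes was 1.47 in replicate 1 and 2.03 in replicate 2. Peg3 and Usp29 enter with the same peak, and Peg10 and Sgce with the same values, so the 17 are not all separate measurements. The 12 other open members had medians of 2.24 and 3.17, and all genes with a promoter peak had 2.03 and 2.996. As ranks among all genes with a promoter peak, the medians were percentile 38.5 and 36.2 for the genes with a germline-methylated start and 56.9 and 55.8 for the others. The ranges overlapped widely. In replicate 1 the first group ran from 0.562 to 4.46 and the other from 0.427 to 4.31. The 4.46 belongs to the first start of Inpp5f, not to its methylated internal start. CpG-rich genes in general had medians of 2.40 and 3.47. These levels hold for windows of 500 bp, and the contrast between the groups was not repeated with other windows. For all open members together, the median over both replicates was 1.90 with 500 bp, against 2.53 for all genes. With 2000 bp it was 2.62 against 2.38.

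**Figure D2:**
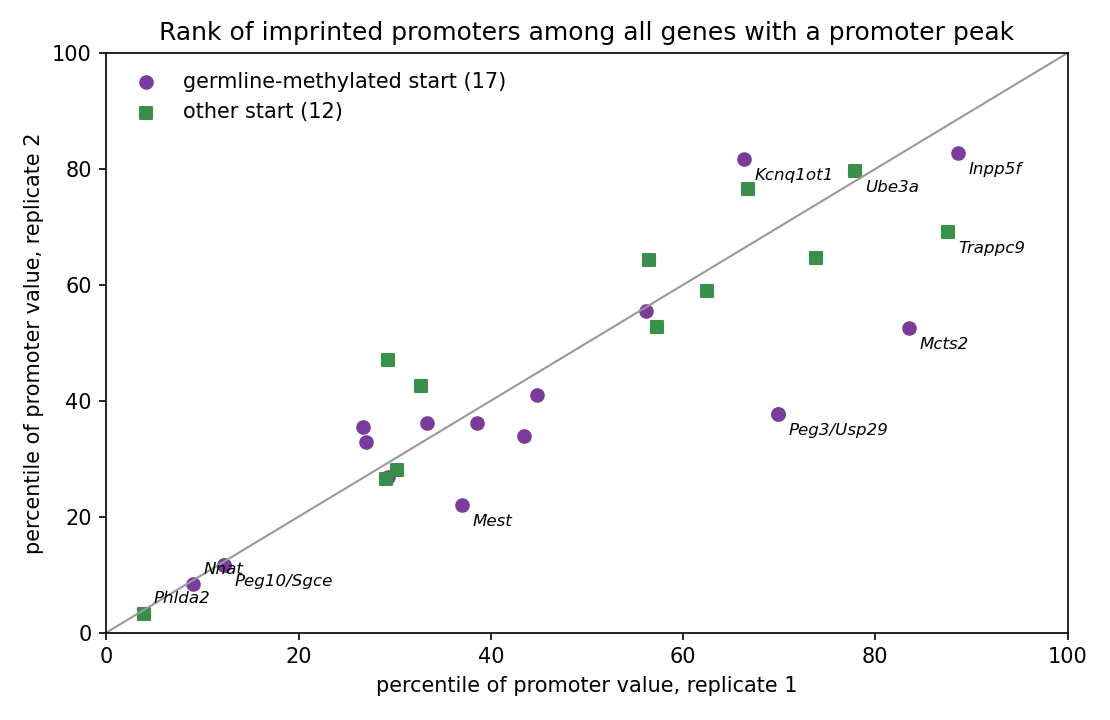
Percentile of the strongest promoter peak among all genes with a promoter peak, in replicate 1 (x axis) and replicate 2 (y axis), for the 29 imprinted genes with a peak in both. The diagonal marks equal rank. Peg3/Usp29 and Mcts2 lie below it, at percentiles 69.9 and 83.5 in replicate 1 and 37.7 and 52.5 in replicate 2.

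Paternally and maternally expressed genes overlapped in their values. Their open genes are nearly the groups with and without a germline-methylated start compared above, so the medians here are not a separate result. A promoter peak in both replicates was found for 14 of 23 paternally expressed genes (60.9%) and 11 of 16 maternally expressed ones (68.8%), a difference of -7.88 percentage points. Copg2, Ppp1r9a, Igf2r, Trappc9 and Commd1 have a maternal bias known from some tissues only. With these left out, the difference turned to 6.32 points in favour of the paternal class. All of them were open in both replicates, so leaving them out could only lower the maternal share. Ube3a stayed in the maternal class in that alternative. Median values of the open genes were 1.54 and 2.02 for the paternal class in replicates 1 and 2, and 2.22 and 2.98 for the maternal class. In replicate 1 the paternal values ran from 0.562 to 3.90 and the maternal values from 0.427 to 4.31.

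**Figure D3:**
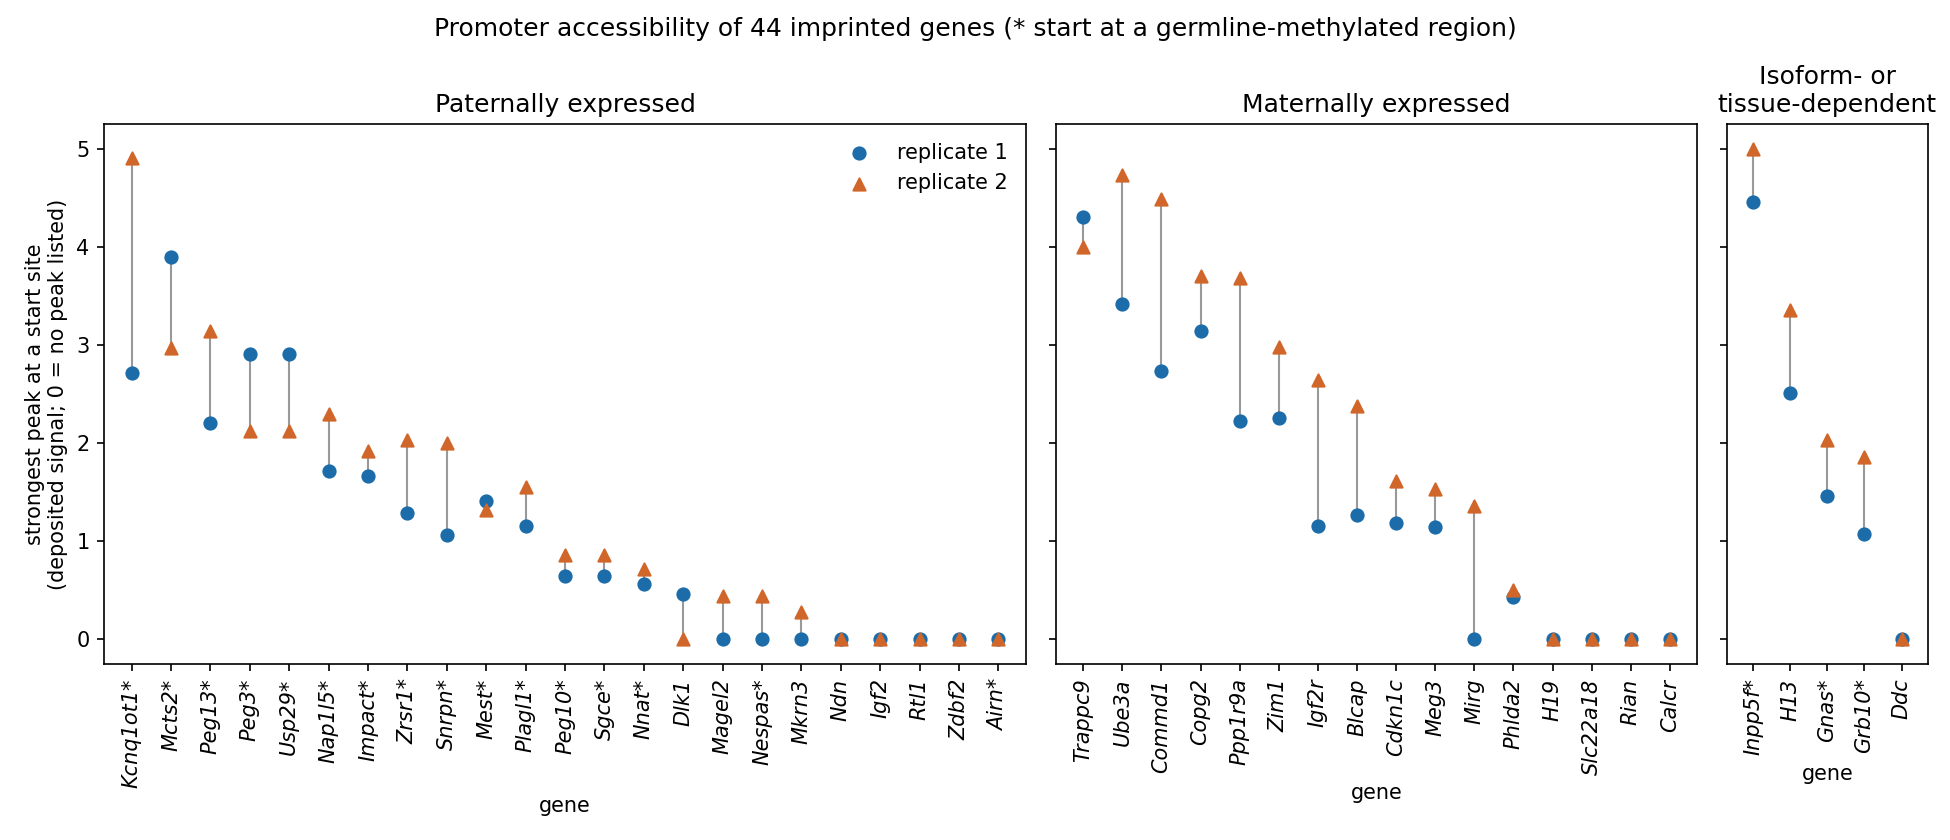
Strongest peak value within 500 bp of a start site (y axis, deposited signal, 0 where no peak is listed) for each of the 44 genes (x axis), in replicate 1 (circles) and replicate 2 (triangles), by parental class. Asterisks mark germline-methylated starts. At the GENCODE starts used here, all paternally expressed genes with a peak in both replicates carry an asterisk. Ndn is open in both at its RefSeq start, which is not plotted.

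In the Peg3 cluster, Peg3, a zinc finger gene tied to maternal behaviour, and Usp29, a ubiquitin protease gene, start back to back and share 1 peak. Its value was 2.91 in replicate 1 and 2.12 in replicate 2. Within the next 3 kb of the Peg3 gene lay 3 further accessible regions in introns, at 838, 1798 and 2718 bp from the start. Their values were 2.79, 3.15 and 2.29 in replicate 1 and 3.88, 3.72 and 2.61 in replicate 2. All 3 exceeded the promoter peak in replicate 2, and the region at 1798 bp did so in both replicates. Zim1, a maternally expressed zinc finger gene next door, had 2.26 and 2.98. Over shared regions away from start sites, 0.555% held the YY1 motif in a 300-bp window. Of the 169 gene-body and distal regions around the members it was 5 (2.96%), and 2 of those 5 are the Peg3 regions.

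In the cluster of Snrpn and Ube3a, Snrpn codes for a splicing protein and Ube3a for the ubiquitin ligase lost in Angelman syndrome. Ube3a had the higher values, 3.41 and 4.73. Snrpn had 1.07 and 2.00 at a start 135108 bp downstream of the 5' end of the annotated gene, which it shares with Snurf. Necdin (Ndn) had no peak at its GENCODE start. That start lies 1708 bp upstream of the RefSeq start, where a peak of 1.02 and 1.78 was found in both replicates. With RefSeq starts added, which exist in the table used for 35 of the 44 genes, the number of members with a promoter peak rose to 30. Magel2 and the ring finger gene Mkrn3, beside Ndn, had a weak peak in replicate 2 (0.446 and 0.276) and none in replicate 1.

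No start of the H19 and Igf2 pair had a peak in the shorter lists. H19 is a non-coding RNA and Igf2 a fetal growth factor. In the longer lists H19 had a peak of 0.298 in replicate 1 only, and Igf2 had none. H19 has 7 annotated starts and Igf2 has 9. Of the 7 accessible regions shared by both replicates within 100 kb, 2 lay upstream of H19 and nearer to it than to Igf2. They were at 2627 bp (0.477 and 1.07) and at 10308 bp (0.915 and 0.838). Both held the motif GGNGGCAG, and in the nearer it is the largely protected CTCF core printed above. The strongest region nearest to Igf2 away from start sites lay 5505 bp upstream of it, with 0.591 and 1.35.

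Kcnq1ot1, a non-coding RNA that silences its neighbours on the paternal copy, had the highest promoter value of the paternal class in replicate 2 and 2.71 in replicate 1. The value in replicate 2 was 4.90. A further region 6572 bp upstream, in an intron of Kcnq1, had 1.71 and 2.51. Its maternally expressed neighbours were lower. Cdkn1c, a cell cycle inhibitor, had 1.19 and 1.61, and Phlda2, a restrainer of placental growth, had 0.427 and 0.499, the lowest of all 29. The transporter gene Slc22a18 had no promoter peak.

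In the cluster of Dlk1 and Meg3, the maternally expressed non-coding gene Meg3 had a promoter peak of 1.15 and 1.53. The exonic region printed above, 783 bp from its nearest start, was stronger, with 1.81 and 3.22. Rian, which hosts small nucleolar RNAs, had no promoter peak. Mirg, which hosts microRNAs, had a promoter peak only in replicate 2 (1.36), beside a start deep in the gene. The same region was open in replicate 1 (0.910), where the edge of the peak missed the 500-bp window. The region of the cluster with the highest mean value away from start sites lay 1967 bp from a Mirg start, with 3.31 and 2.82. In replicate 2 the Meg3 region was higher. Of the paternally expressed genes, Dlk1, which codes for a Notch-ligand-like membrane protein, had a peak only in replicate 1 (0.462). The retrotransposon-derived Rtl1 had none.

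**Figure D4:**
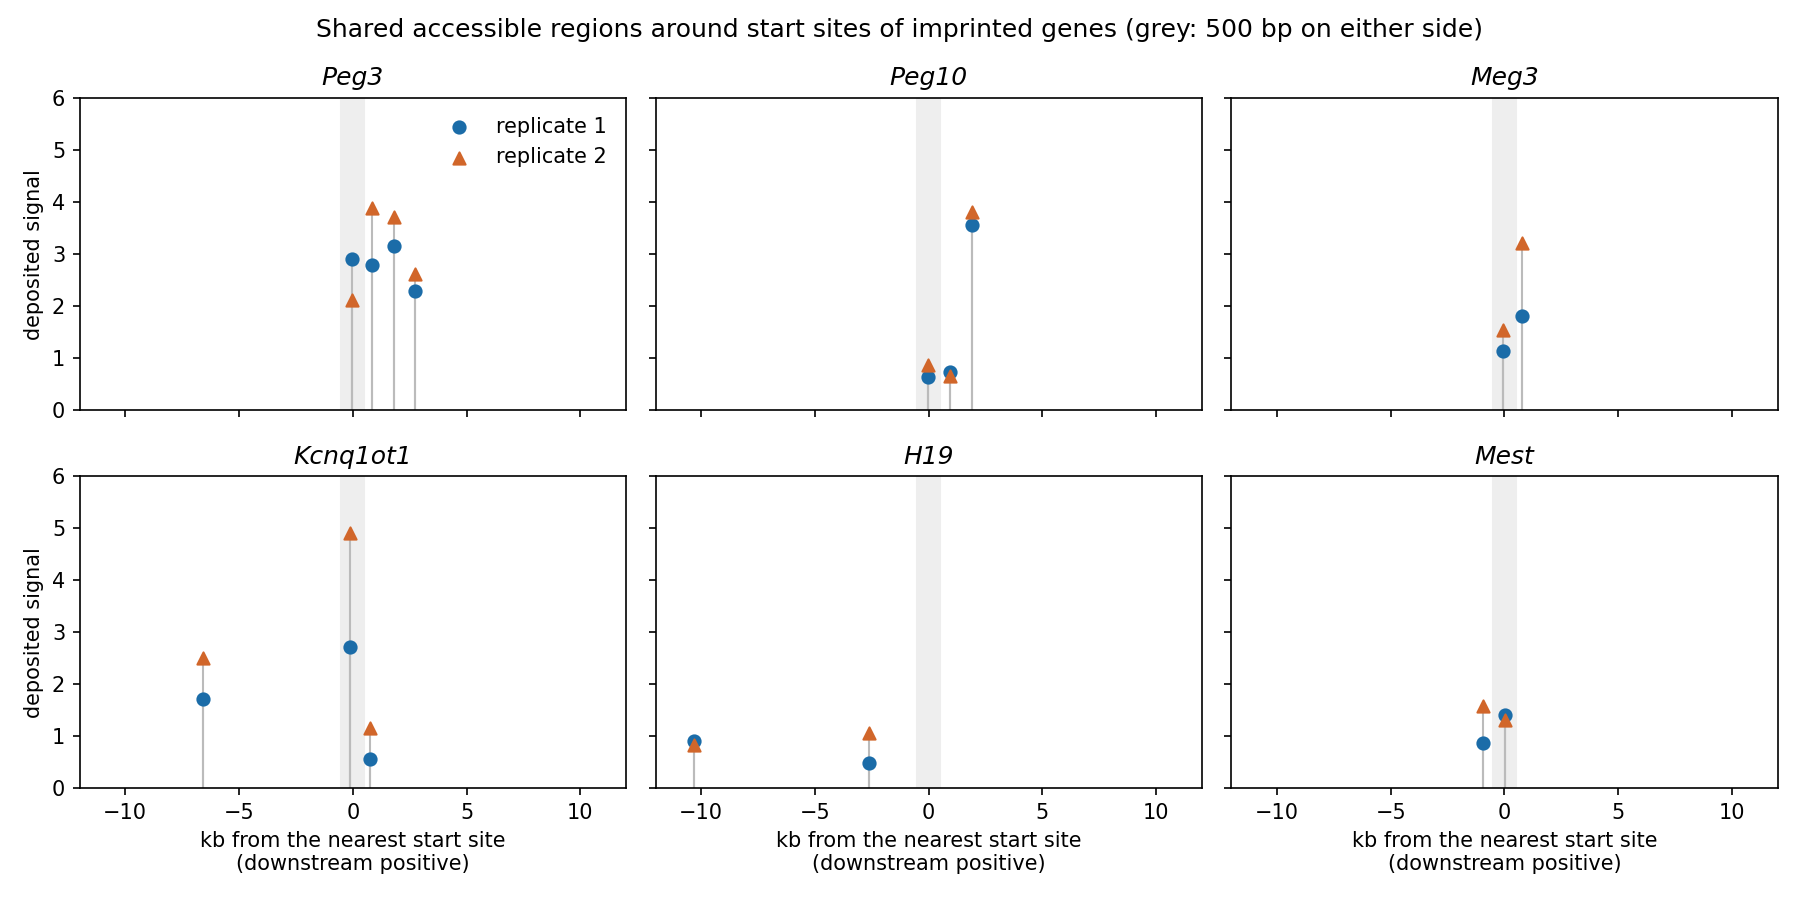
Values of regions accessible in both replicates (y axis, deposited signal) by distance from the nearest start site of the named gene (x axis, kb, downstream positive), up to 12 kb away, in replicate 1 (circles) and replicate 2 (triangles). Peg3, Peg10 and Meg3 each have a region downstream of the start that is higher than the start itself in both replicates, and H19 has regions only upstream in this window.

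Peg10, another retrotransposon-derived gene, and Sgce, a sarcoglycan gene mutated in myoclonus-dystonia, also start back to back. Their shared promoter peak was low, with 0.646 and 0.865. The intronic Peg10 region 1915 bp downstream was more than 4 times as high in both replicates, with 3.55 and 3.82. Ppp1r9a, which codes for the actin-binding protein neurabin, had its highest promoter peak, 2.22 and 3.68, at an internal start 207742 bp into the gene. At its first starts the peak was 0.646 and 0.874. The calcitonin receptor gene Calcr had no promoter peak in the shorter lists, and 0.263 in the longer list of replicate 1.

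Several imprinted genes lie inside or beside a host gene of the other parental class or of none. In the 4 pairs that follow the starts of both were open. Peg13, a non-coding gene in an intron of Trappc9, had 2.21 and 3.14, and Trappc9, a vesicle trafficking gene, had 4.31 and 3.99. A region 6437 bp upstream of Trappc9 was the strongest away from start sites among the 252 shared regions near the members, with 6.98 and 6.66. Mcts2, a retrogene in an intron of H13, had 3.90 and 2.97, and its host, a signal peptide peptidase gene, had 2.51 and 3.35. Zrsr1, a splicing factor retrogene, had 1.29 and 2.03 inside Commd1, which had 2.73 and 4.49. Commd1 also has an annotated start at that Zrsr1 peak. Nap1l5, related to nucleosome assembly proteins, had 1.72 and 2.30 inside Herc3, and 1 of the Herc3 starts lies at the same peak.

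Nnat, which codes for the membrane proteolipid neuronatin, had a weak peak of 0.562 and 0.722 near an internal start 931 bp into the gene, and no peak at its RefSeq start. Blcap, which surrounds it, had 1.27 and 2.38. Mest, a hydrolase-fold gene, had 1.41 and 1.32 at an internal start, and Copg2, a coatomer gene that runs toward it, had 3.15 and 3.70. The receptor gene Igf2r had 1.15 and 2.65. Its antisense RNA Airn had no peak in the shorter lists, and 0.512 and 0.535 in the longer ones.

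Plagl1, a zinc finger growth regulator, had 1.15 and 1.55, and Impact, a regulator of translation under stress, had 1.66 and 1.92. Zdbf2 had no promoter peak in the shorter lists, and 0.353 in the longer list of replicate 1. Its strongest region away from start sites was 92024 bp upstream (1.86 and 4.65). Gnas, which codes for the stimulatory G protein alpha subunit from several starts, had 8 promoter peaks in each replicate. Some of those in replicate 1 overlapped each other, and merged over both replicates there were 5 shared promoter regions. The highest peak was 1.47 in replicate 1 and 2.03 in replicate 2, at different starts. Nespas, antisense to it, had a peak only in replicate 2 (0.446). Grb10, an adaptor of insulin signalling, had 1.08 and 1.86 at internal starts and none at its RefSeq starts. Ddc, the enzyme that makes dopamine, had none. Inpp5f, a phosphoinositide phosphatase gene, had the highest promoter values of the 44, with 4.46 and 5.002. That peak is at its first start. At the internal start 77161 bp downstream, where its germline-methylated region is known to lie, the peak was 1.41 and 2.30.

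A higher promoter value in replicate 1 than in replicate 2 was found for 5 of the 29 open members (17.2%), against 7.15% of the genes over the whole annotation that are open in both. They are Peg3 and Usp29, which share a peak, Mest, Trappc9 and Mcts2. After the median shift was removed, Peg3 and Usp29 differed by 0.95 on the log2 scale, Mcts2 by 0.89, Trappc9 by 0.60 and Mest by 0.59. Igf2r moved the other way, by -0.71. The median over the members was 0.07. With 1 library on each side, no error can be put on these differences.

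Away from start sites, the region with the highest mean value differed in place from cluster to cluster. For Plagl1 it lay 52103 bp upstream, in an exon of the neighbour Sf3b5, with 4.12 and 4.57. For Impact it lay in an intron, 937 bp upstream of an internal start, with 2.10 and 3.19, above the promoter peak in both replicates. Near Nap1l5 it lay 26305 bp upstream in an exon of Fam13a, with 2.56 and 3.06.

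In several other clusters this region was distal. Near H13 it lay 43372 bp downstream of a start (2.88 and 3.38), near Blcap 64587 bp upstream (1.26 and 4.53) and near Airn 64440 bp downstream (1.16 and 3.25). Near Copg2 it lay 11397 bp upstream (2.09 and 2.41), and near Commd1 92609 bp upstream (1.12 and 1.17). Inside genes, it lay in an intron of Inpp5f (1.92 and 3.34), of Gnas (0.770 and 3.01) and of Ddc (1.02 and 2.46). In the deposited values, without the median shift removed, the Blcap, Airn, Gnas and Ddc regions were over 2 times as high in replicate 2 as in replicate 1. The same held for the Zdbf2 region given above.

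Footprints gave similar counts to peaks, but they were called within open chromatin, so these counts are not independent. A footprint lay within 500 bp of a start in both replicates for 30 of 44 members (68.2%). The share was 29.8% of all genes, 59.9% of protein-coding genes and 87.6% of genes with a CpG-rich start window. These shares too were not adjusted for the number of annotated starts, with a median of 5 for members and 1 for all genes. A gene-body peak, away from all start sites, was found in both replicates for 23 members, against 18.7%. The members are longer, with a median span of 28.6 kb against 3.33 kb for all genes. Per 100 kb of gene span they had 2.98 and 3.20 body peaks in replicates 1 and 2, against 3.01 and 2.98 for all genes. At least 1 distal peak within 100 kb in both replicates was found for 42 members, against 84.1% of all genes. The median number was 6 in each replicate against 5.

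Motifs were counted in 300-bp windows on the 49 promoter regions of members shared by both replicates. The ZFP57 motif TGCCGC was in 16 (32.7%), against 23.4% of all shared promoter regions. In the 31 regions of genes with a germline-methylated start, which are part of the 49, it was in 10 (32.3%). The 31 include peaks at other starts of these genes and leave out gene-body regions close to the methylated starts. The share at the methylated regions themselves was therefore not counted. GGGCGG was in 20 of 49 (40.8%), against 59.99%. GGNGGCAG was in 5 (10.2%), against 18.3%. The YY1 motif was in 0 of the 49, against 4.71%. A match is only a run of letters and was not tested for binding.

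A further list of 40 imprinted genes held 21 with a start-site peak in both replicates (52.5%), against 28.6% of all genes, 57.9% of protein-coding genes and 86.0% of CpG-rich ones. Of the 40, 23 have a CpG-rich start window. The highest were Nap1l4 (5.05 and 9.01), Tssc4 (6.60 and 5.88) and Bcl2l1 (5.24 and 5.19). Pon3, Tfpi2 and Zim2 were among those with none. Of 20 genes that set or keep imprints, 17 had one (85.0%), and 18 of the 20 have a CpG-rich start window, so the share is near the 86.0% of such genes. The highest were Arid4a (6.48 and 5.80), Kdm1b (4.28 and 5.64) and Arid4b (4.98 and 4.57). Dppa3, Dnmt3l and Zfp57, which are known from germ cells and early embryos, had none.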

How the data were processed

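DNase-seq peaks, footprints and FDR intervals of 2 libraries were used as deposited, in mm10 coordinates per the deposited descriptions. No aligner, peak caller or normalization was given in the sources used here. Each peak's signal is the value that the authors deposited. Each deposited interval has a q-value (FDR), below 0.05 in all rows. The footprint lists carry an FDR p-value threshold of 0.01 in the rows the authors deposited. The shorter peak list of each library was used, and the longer one was an alternative.

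Start sites came from GENCODE M21. A promoter was 500 bp on either side of any start, and its value that of the strongest overlapping peak (at least 1 bp). Body peaks overlapped the gene span and distal peaks lay within 100 kb, both away from all start windows. Peaks of both replicates were merged, and merged regions with a peak of each were called shared. Scripts used Python 3.11.15, pandas 2.3.3 and pysam 0.24.0 and were tested on simulated data with planted peaks.

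The members and lists were chosen with earlier results of these data known. The rule for named genes took all 44 members and up to 3 strong body and distal regions of each imprinted cluster by mean value, of which the text gives at least the strongest. The 8 printed sequences, and the comparison of Peg3, Peg10, Kcnq1ot1, Meg3, H19 and Mest by distance, were picked after their values were seen. Promoter sequences of RefSeq were used only for their start sites, in the same assembly.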

Additional observations from a re-analysis of the deposited data

How the results depend on the processing

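No paired analysis was possible because the series has 1 group and no comparison between groups. The number of members open at a start in both replicates stayed within 1.5 times of 29 under each alternative, between 22 and 33, and that of members with a footprint at a start between 25 and 34. Counting 1 replicate at a time gave 30 to 33 members with a promoter peak.

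The difference in share between paternally and maternally expressed members was -7.88 points. It was -3.53 to -1.09 with 1 replicate left out, -3.53 with the longer peak lists, -14.7 with the stronger 50% of peaks, -5.98 and -11.7 with start windows of 100 and 2000 bp, -20.2 for protein-coding members only and -3.53 with RefSeq starts added. It turned to 6.32 with Copg2, Ppp1r9a, Igf2r, Trappc9 and Commd1 left out, all of which were open in both replicates, so that the direction of this shift was fixed. The share of genes with a germline-methylated start that had a peak (89.5%) was 89.5 to 94.7% with 1 replicate left out, 94.7% with the longer lists, 73.7% with the stronger 50% of peaks, 84.2% with 100 bp and 94.7% with 2000 bp.

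The median promoter value over both replicates (1.90) was 1.57 to 2.03 with 1 replicate left out, 2.51 with the stronger 50% of peaks and 2.62 with 2000 bp, where all genes had 2.38. In that setting the members' median was above that of all genes, whereas it was below (1.90 against 2.53) in the setting used. Body peaks per member (1.93) were 3.40 with the longer lists, 0.864 with the stronger 50% and 3.50 with each peak over the gene span counted. The median number of distal peaks (6) was 10 with the longer lists, 2.50 with the stronger 50%, 3 within 50 kb and 0 when a peak went to its nearest start only. The share of promoter regions with the ZFP57 motif was 27.7 to 33.3% with 1 replicate left out. The comparison with CpG-rich genes, the removal of shared peaks and the RefSeq starts were chosen after seeing the data. The cause of each of these shifts was not tested. The depth was inferred from the values, and the number of libraries (2) limits the precision of every value.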
